A study of Mus musculus with 6 samples.

Results

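A set of 9 keratin genes whose proteins mark layers of the hair follicle was followed in whole mouse dorsal skin on day 2 of a contact-sensitizer experiment. They were chosen by name: Krt25, Krt27, Krt28, Krt71, Krt72 and Krt73 for the inner root sheath, Krt75 for the companion layer, Krt32 for the hair cuticle and Krt79 for the infundibulum, the follicle's mouth. All 9 were found among the 55487 genes of the deposited count table, beside 45 other keratin genes. Samples were 3 pieces of whole skin labelled control and 3 labelled DPCP (diphenylcyclopropenone, a chemical that sensitizes skin on contact and elicits delayed-type allergy). The labels give day 2 for both groups but no strain, age or sex, no statement of what control skin received, and nothing on whether samples within a group are different mice. Every p-value below thus reflects sample-to-sample spread only, and that spread may be technical.

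Keratins are the intermediate filament proteins of epithelial cells, and each filament pairs an acidic type I keratin with a basic type II keratin. The growing (anagen) follicle builds concentric sleeves around the hair shaft: the inner root sheath, whose cells pair type I keratins such as Krt25, Krt27 and Krt28 with type II keratins such as Krt71, Krt72 and Krt73, the companion layer outside it, and the cuticle of the shaft itself. The inner root sheath and the shaft are made in growth and are not made in the resting (telogen) follicle, while the infundibulum and the sebaceous duct persist through the cycle.

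The 9 keratins differed in how far they could be measured. Krt75, Krt32 and Krt79 were each the only keratin listed for their layer, so their values are those of genes, not of layers. In the 2 skin groups alike, Krt79 and Krt75 were abundant, Krt28 and Krt32 were low, and the other 5 inner root sheath keratins had at most 12 counts in any library. Krt28 and Krt32 were 8.86-fold and 8.77-fold lower in DPCP than in control skin, on mean CPM (counts per 1000000, after scaling for library composition). Krt79 and Krt75 did not pass the test. A gene was called when its adjusted p was under 0.05 in edgeR's quasi-likelihood test over all genes with enough counts. Of the 18259 genes tested, 46.1% were called, 23.3% lower and 22.8% higher in DPCP skin, so a call alone sets no gene apart. Of the 9 keratins, 4 had enough counts to be tested and 2 of these were called, both lower. The 5 that were not tested were all inner root sheath keratins.

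Library totals were 28346992 to 38846787 counts. On the first principal component of log2 CPM, which held 77.1% of the variance, control libraries lay at -65.3 to -64.5 and DPCP libraries at 49.2, 73.8 and 71.9, with DPCP replicate 1 nearest to control. One gene, CT010467.1, took 2.46% of the counts of DPCP replicate 2 and 0.489% or less in every other library. Read mates were counted singly, so 1 sequenced fragment can give 2 counts. Of the 18 values above 0 among the 5 inner root sheath keratins that were not tested, 14 were even. Because the tissue is whole skin, fewer cells of a type and less RNA per cell cannot be told apart.

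The 9 genes lie in the 2 keratin clusters of the mouse genome, all on the minus strand of GRCm38. The type I genes are on chromosome 11: Krt25 (ENSMUSG00000035831) at chr11:99315516-99322951, Krt27 (ENSMUSG00000017588) at chr11:99345565-99351104, Krt28 (ENSMUSG00000055937) at chr11:99364872-99374903 and Krt32 (ENSMUSG00000046095) at chr11:100080848-100088226. The type II genes are on chromosome 15: Krt75 (ENSMUSG00000022986) at chr15:101563345-101573904, Krt71 (ENSMUSG00000051879) at chr15:101733949-101743109, Krt72 (ENSMUSG00000056605) at chr15:101776172-101786460, Krt73 (ENSMUSG00000063661) at chr15:101793308-101802346 and Krt79 (ENSMUSG00000061397) at chr15:101929332-101940324. Each cluster held 27 keratin genes, of which 14 on chromosome 11 and 16 on chromosome 15 had enough counts to be tested. Krt32 shared 249 exon bases with an antisense gene, Gm11571, and Krt75 shared 129 with Gm44460. Reads in those bases were not counted for either gene.

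The 250 bases before the start site are given for 6 of the genes, some low and some abundant in this skin, and a link to level was not tested. They are from RefSeq on GRCm38.p6, written 5′ to 3′ along the gene's (minus) strand, at chr11:99374904-99375153 for Krt28, chr11:100088270-100088519 for Krt32, chr11:99322952-99323201 for Krt25, chr15:101743098-101743347 for Krt71, chr15:101573905-101574154 for Krt75 and chr15:101940325-101940574 for Krt79. All 9 genes had an entry. Capitals mark matches, on either strand, to the core promoter, GATA factor and LEF/TCF motifs whose letters are given after the sequences.
Krt28: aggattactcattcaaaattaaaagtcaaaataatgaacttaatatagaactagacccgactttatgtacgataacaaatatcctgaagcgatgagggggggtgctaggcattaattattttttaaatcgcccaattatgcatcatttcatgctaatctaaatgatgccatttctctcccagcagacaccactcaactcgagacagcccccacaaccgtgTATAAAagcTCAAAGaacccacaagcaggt
Krt32: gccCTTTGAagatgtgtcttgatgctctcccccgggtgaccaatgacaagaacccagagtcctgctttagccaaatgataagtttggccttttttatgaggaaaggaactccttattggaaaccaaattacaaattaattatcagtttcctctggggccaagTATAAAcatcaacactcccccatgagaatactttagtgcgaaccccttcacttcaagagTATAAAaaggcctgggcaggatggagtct
Krt25: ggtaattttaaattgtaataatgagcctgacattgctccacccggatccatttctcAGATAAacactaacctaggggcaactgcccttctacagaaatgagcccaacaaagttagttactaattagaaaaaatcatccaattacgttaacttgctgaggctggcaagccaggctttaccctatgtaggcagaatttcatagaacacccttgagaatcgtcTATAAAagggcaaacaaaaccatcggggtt
Krt71: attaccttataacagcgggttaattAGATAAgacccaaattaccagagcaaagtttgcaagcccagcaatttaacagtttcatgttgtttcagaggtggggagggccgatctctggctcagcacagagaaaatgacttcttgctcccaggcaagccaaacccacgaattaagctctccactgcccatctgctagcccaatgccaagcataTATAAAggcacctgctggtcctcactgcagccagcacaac
Krt75: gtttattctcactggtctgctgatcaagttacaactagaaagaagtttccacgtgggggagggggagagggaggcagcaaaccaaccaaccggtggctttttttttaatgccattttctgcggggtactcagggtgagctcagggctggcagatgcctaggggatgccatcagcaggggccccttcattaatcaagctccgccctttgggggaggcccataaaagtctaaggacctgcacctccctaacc
Krt79: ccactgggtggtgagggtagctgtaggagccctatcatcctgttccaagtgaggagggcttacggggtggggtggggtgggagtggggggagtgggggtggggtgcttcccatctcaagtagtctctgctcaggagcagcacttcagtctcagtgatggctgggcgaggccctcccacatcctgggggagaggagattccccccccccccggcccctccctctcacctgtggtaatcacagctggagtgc

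A match to the TATA box letters (TATAAA) stood on the gene's own strand in 6 of the 9 promoters. Krt72 had a match on the opposite strand only, bases 203 to 198 before the start, and Krt75 and Krt79 had none. Counting both strands, these were 7 of 9, against 12.4% of the 32851 promoters of the same length in the table. In Krt28, Krt25 and Krt73 it spanned bases 30 to 25 before the start, and in Krt32 it spanned bases 29 to 24, with another at 88 to 83. In Krt71 it spanned bases 40 to 35 and in Krt27 bases 15 to 10. The motif of GATA factors (AGATAA) stood in 4 promoters (Krt25, Krt27, Krt71 and Krt73), against 9.99% of all promoters; Gata3 is a known regulator of the inner root sheath lineage. The LEF/TCF motif (CTTTGA) stood in 2 promoters, those of Krt28 (on the opposite strand, bases 21 to 16 before the start) and Krt32 (bases 247 to 242), against 13.8% of all promoters. Neither an AP-1 motif (TGANTCA, in 6.75% of all promoters) nor a C/EBP motif (TTGCNNAA, in 9.56%) was found in any of the 9. None of these motifs overlapped another in these windows. Only the exact letters were sought, so variants of a motif are not marked, and the matches describe the letters only.

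Among the inner root sheath keratins, Krt28, a type I keratin of the sheath, was the only one with more than 12 counts in any library. It had 110, 121 and 185 counts in the 3 control libraries and 23, 20 and 9 in the 3 DPCP libraries. On the CPM scale these were 3.74, 4.03 and 5.52 CPM in control and 0.663, 0.547 and 0.290 CPM in DPCP skin. Every DPCP library lay below every control library; 58.1% of all genes tested had groups that did not overlap in one direction or the other. The mean fell from 4.43 ± 0.952 to 0.500 ± 0.191 CPM (SD, n = 3 each), a log2 fold change of -3.13 (SE 0.32, 95% interval -3.85 to -2.41, edgeR adjusted p = 0.000134). Krt28 stood at rank 90 of 18259 from the lowest log2 fold change.

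The sheath's other type I keratins were near the limit of detection. Krt27 had 3, 4 and 6 counts in control and 9, 10 and 5 in DPCP libraries, 13 against 24 in all. Krt25 had 2, 4 and 2 counts in control and 0, 2 and 2 in DPCP libraries. For scale, 3 counts in a library corresponded to 0.0820 to 0.102 CPM, the level that a count of 0 allows if counts are independent. Mates counted singly are not independent, so the level allowed is higher. Krt25 was at or below 0.133 CPM in every library. In both genes the groups overlapped.

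The sheath's type II keratins were as sparse. Krt71, the keratin mutated in curly-coated mouse strains, had 4, 10 and 6 counts in control and 10, 12 and 9 in DPCP libraries, at most 0.333 CPM. Krt73 had 4 counts in DPCP replicate 1 and 0 in the other 5 libraries. Krt72 had 0 in all 6. Groups overlapped for Krt71, and the other pair was too sparse to compare. The 5 keratins other than Krt28 together had 9, 18 and 14 counts in control and 23, 24 and 16 in DPCP libraries, 0.306 to 0.599 against 0.515 to 0.663 CPM, so the ranges overlapped and their sum was not lower in DPCP skin. Without the count filter, 31379 genes were tested and 27.5% called, 13.6% lower and 13.9% higher, and none of the 4 detected genes was called, with edgeR adjusted p = 0.598 for Krt25, 0.510 for Krt27, 0.591 for Krt71 and 0.333 for Krt73. As a marker set the inner root sheath rested on Krt28 alone, with Krt72 at 0 in all 6 libraries and Krt73 at 0 in 5 of them, so the label of an inner root sheath signal is not borne out by its other markers.

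**Figure D1:**
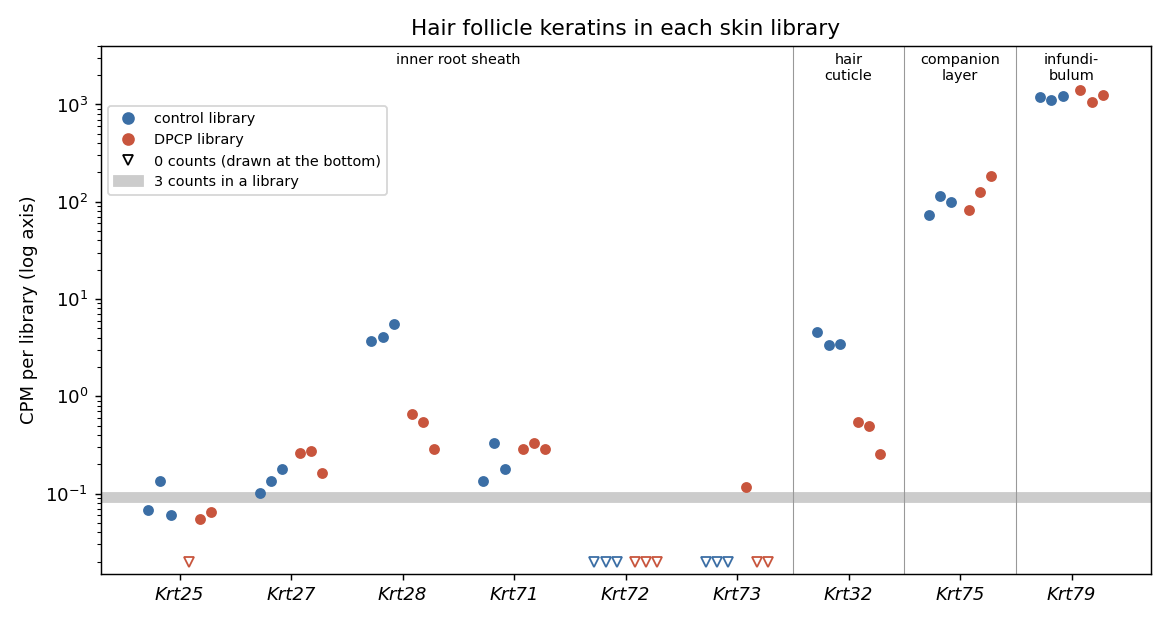
Level of each keratin in each library, in CPM on a log axis, with 3 control and 3 DPCP libraries side by side; the grey band is 3 counts in a library and triangles are counts of 0. Krt28 and Krt32 lie at 3.33 to 5.52 CPM in control and 0.257 to 0.663 CPM in DPCP libraries, Krt75 and Krt79 overlap between groups, and the other inner root sheath keratins are at or below 0.333 CPM in every library.

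Krt32, a type I keratin of the hair cuticle, the outermost cells of the shaft, had 135, 100 and 116 counts in control and 19, 18 and 8 in DPCP libraries. In CPM it was 4.59, 3.33 and 3.46 in control and 0.548, 0.492 and 0.257 in DPCP skin. The groups did not overlap, and DPCP replicate 3 was the lowest library, as it was for Krt28. The mean fell from 3.79 ± 0.695 to 0.432 ± 0.154 CPM (SD, n = 3 each), with a log2 fold change of -3.11 (SE 0.31, 95% interval -3.81 to -2.41, edgeR adjusted p = 0.000121). Krt32 was at rank 93 of 18259. A threshold of -3 on the log2 scale, set after these values were seen, was passed by 0.564% of the genes tested, with a call. The antisense partner Gm11571 had 1, 0 and 1 counts in control libraries and 0 in the DPCP libraries. Strand was not used in counting, so reads from the 2 genes outside their shared bases are told apart by position only. Krt32 was the only marker listed for the hair cuticle, so that label rests on this gene alone. The 12 hair shaft keratins given below as untested were too sparse to bear it out.

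Krt75, a type II keratin of the companion layer, the single cell layer between the inner and outer root sheaths, had 2138, 3446 and 3326 counts in control and 2822, 4561 and 5779 in DPCP libraries. Its level was 72.7, 115 and 99.2 CPM in control and 81.4, 125 and 186 CPM in DPCP skin. DPCP replicate 1 lay inside the control range and replicates 2 and 3 above it. Means were 95.6 ± 21.2 and 131 ± 52.6 CPM (SD, n = 3 each), a log2 difference of 0.45 (SE 0.28, 95% interval -0.18 to 1.08) that did not pass the test (edgeR adjusted p = 0.215). Without DPCP replicate 1 the difference was 0.70 and Krt75 was called higher (edgeR adjusted p = 0.0304). That fit called 43.2% of 18703 genes, 21.6% in each direction. Without DPCP replicate 3 the difference was 0.12 and Krt75 was not called (edgeR adjusted p = 0.716).

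Krt79, a type II keratin of the infundibulum and sebaceous duct, was the most abundant of the 9, with 33756 to 48866 counts per library. It was 1198, 1124 and 1214 CPM in control and 1409, 1066 and 1253 CPM in DPCP skin. The DPCP libraries spanned the control range, with replicate 1 highest and replicate 2 lowest of all 6. Means were 1179 ± 48.1 and 1243 ± 172 CPM (SD, n = 3 each), and the log2 difference of 0.08 (SE 0.12, edgeR adjusted p = 0.625) had a 95% interval of -0.19 to 0.35. Without DPCP replicate 1 it was -0.02, still not called.

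**Figure D2:**
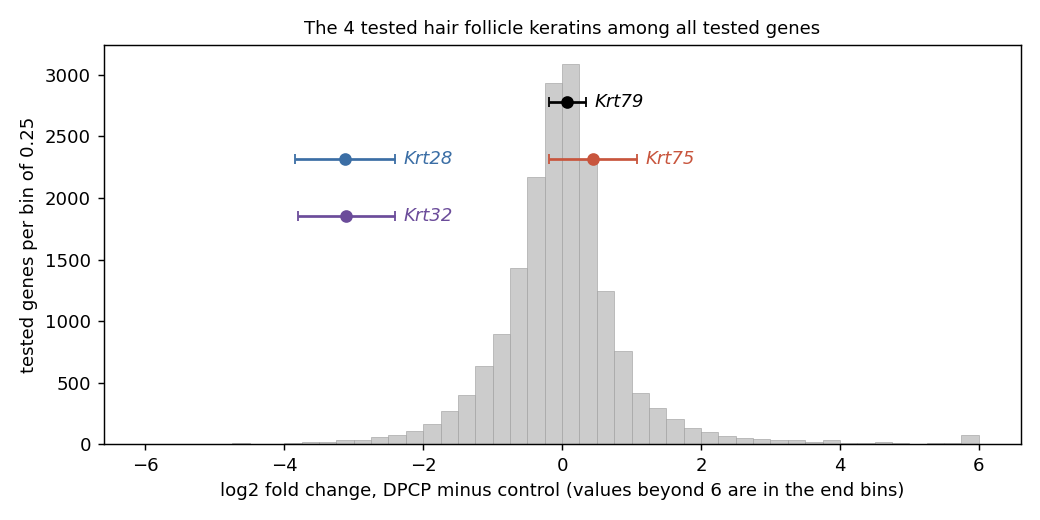
Log2 fold changes (DPCP minus control) of the 4 tested keratins as points with 95% intervals, over a histogram of all 18259 genes tested in bins of 0.25; the height of the points has no meaning. Krt28 at -3.13 and Krt32 at -3.11 lie in the lower tail, and the intervals of Krt75 (0.45) and Krt79 (0.08) include 0.

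Levels of different genes were compared as CPM per kilobase of merged exon length (RPKM). In control skin the order was Krt79 (248 ± 10.1 RPKM), Krt75 (29.3 ± 6.5), Krt28 (2.73 ± 0.586) and Krt32 (2.2 ± 0.404), each SD over n = 3. Krt28 and Krt32 overlapped in both groups, at 0.308 ± 0.118 and 0.251 ± 0.0896 RPKM in DPCP skin, while Krt79 (261 ± 36.1) and Krt75 (40.01 ± 16.1) stood apart from every other. Below them came Krt71 (0.0988 in control and 0.138 in DPCP skin), Krt27 (0.0891 and 0.149) and Krt25 (0.0437 and 0.0199), whose libraries are too sparse to order. The Krt79 value uses the deposited length of 4753 bases, against 2097 bases for an annotated coding transcript of the gene, so its RPKM is a low estimate for that transcript. By CPM, Krt79 made up 87.0% to 94.4% of the summed level of the 9 genes in each library and Krt75 5.45% to 12.9%. The other 7 made up 0.638% to 0.710% in control and 0.0738% to 0.142% in DPCP libraries, without overlap. That difference lay in Krt28 and Krt32, since the summed CPM of the other 5 was not lower in DPCP skin.

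Sequence likeness bears on how well reads of these genes could be assigned, since reads that align to several places were not counted. The coding sequences of Krt25 and Krt27 were 83.7% identical, those of Krt25 and Krt28 78.3% and those of Krt71 and Krt73 81.4%. Exact matches were fewer, sought in a coding transcript of each gene that was not chosen as the main one. Of its 75-base windows, 4.18% of Krt25, 4.54% of Krt27, 0.839% of Krt28, 0.663% of Krt71 and 0.143% of Krt73 occurred in another gene. No such window was found for Krt32, Krt72, Krt75 or Krt79. Most of each transcript, the sparse ones included, thus had no exact match of that length in the annotated transcripts of another gene. Near matches and copies outside annotated transcripts were not sought, and how many reads were lost was not tested.

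The genes beside the members in the clusters were read from the same fit. Krt10, the type I keratin of differentiating epidermis, lies 10350 bases upstream of Krt28 on the same strand. It was at 5711, 4886 and 7144 CPM in control and 1272, 1076 and 708 CPM in DPCP skin (log2 fold change -2.54, SE 0.23, edgeR adjusted p = 8.76e-05). Krt28 had 0.655, 0.825 and 0.772 counts per 1000 of Krt10 in control and 0.521, 0.508 and 0.409 in DPCP libraries, so the ratio was lower in every DPCP library than in any control library. The log2 ratio differed by -0.65 (exact permutation test, two-sided, p = 0.1, the smallest that 3 against 3 allows; adjusted p = 0.133 over 8 pairs of genes). Krt10 shares 146 exon bases with another gene, Gm11940, on the opposite strand, and its level is uncertain for that reason. Krt27, on the other side of Krt28, was too sparse to test.

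Beside Krt75, 394 bases away, Krt90 had 2, 3 and 2 counts in control and 32, 162 and 65 in DPCP libraries (log2 fold change 4.98, edgeR adjusted p = 0.000847). It shares 138 exon bases with Gm44393, which makes its level uncertain, and all 3 of its DPCP libraries lay above its control libraries. Krt6b and Krt6a, keratins of stressed epidermis in the same stretch, are given with the other keratins. Krt79 lies between Krt4, at a log2 difference of 0.04 (not called), and Krt78, which fell by 2.16. Krt73 lies beside Krt2, which fell by 4.56, and Krt71 beside Krt5, at 0.34 (edgeR adjusted p = 0.0681). Krt5 shares 129 exon bases with Gm44323, so its level is uncertain too. Tested neighbours of the 9 thus included genes called higher, called lower and not called.

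**Figure D3:**
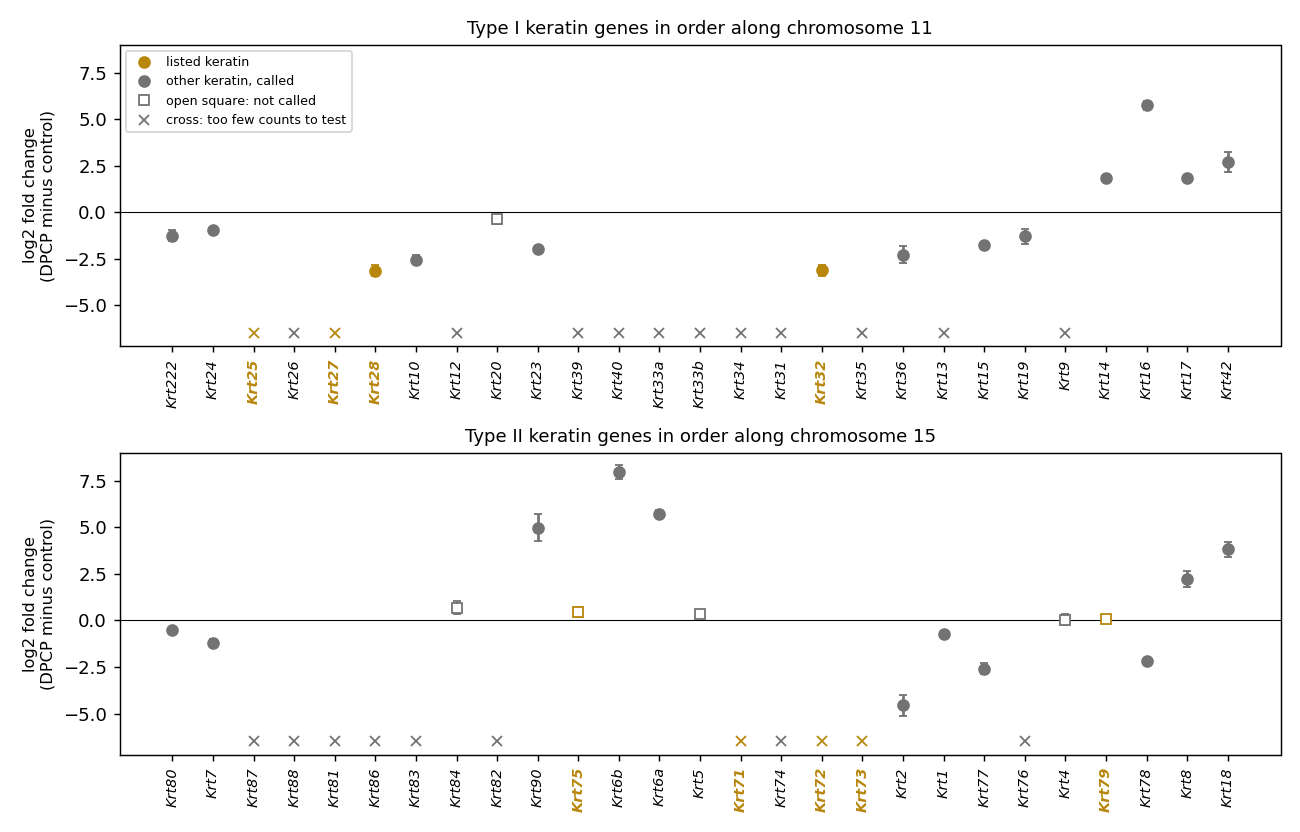
Log2 fold change (DPCP minus control) with SE for the 27 keratin genes on chromosome 11 and the 27 on chromosome 15, in genomic order; listed keratins are gold, open squares were not called and crosses had too few counts to test. Krt28 (-3.13) and Krt32 (-3.11) are the tested listed genes of the upper panel. Among the keratins drawn, Krt75 (0.45) lies between Krt90 and Krt6b, both called higher. Krt79 (0.08) lies between Krt4, not called, and Krt78, called lower.

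The other pairs set members against each other or against a related keratin. The log2 ratio of Krt28 to Krt32 differed by -0.02 between groups that overlapped (exact permutation p = 1), which does not show that the pair changed alike. Krt32 against Krt36, a type I hair keratin from the same cluster, was 1080, 935 and 1094 counts per 1000 in control and 396, 857 and 889 in DPCP libraries, a difference of -0.62 with groups that did not overlap (exact permutation p = 0.1). Most of it came with DPCP replicate 1, the lowest library, without which the difference was -0.24. Krt75 and Krt79 relative to Krt17, a keratin of the outer root sheath and of stressed epidermis, differed by -1.43 and -1.76 (exact permutation p = 0.1 for each). Krt75 against Krt79 differed by 0.33 (exact permutation p = 0.5, adjusted 0.571). Relative to Krt79, the log2 ratio of Krt28 differed by -3.28 and that of Krt32 by -3.26 (exact permutation p = 0.1 for each).

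**Figure D4:**
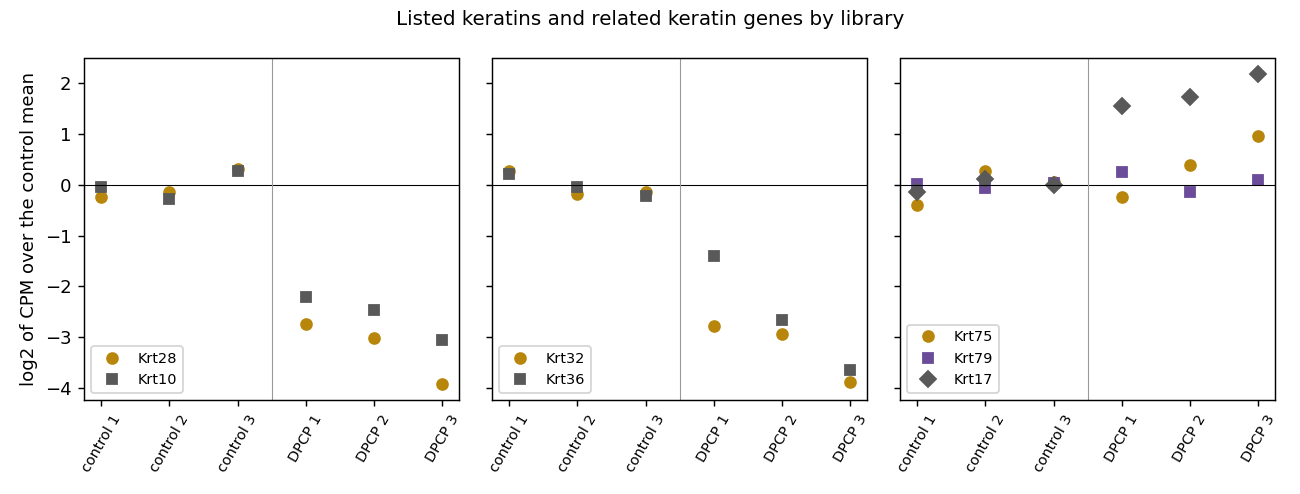
Log2 of each library's CPM over the control mean for Krt28 with Krt10, Krt32 with Krt36, and Krt75 and Krt79 with Krt17; the vertical line parts control from DPCP libraries. Krt28 lies below Krt10 and Krt32 below Krt36 in all 3 DPCP libraries, and Krt17 lies above Krt75 and Krt79 in the same libraries.

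Partners of the inner root sheath keratins did not move in 1 direction. Of 13 listed genes (structural and enzymatic partners and regulators of the sheath), 11 were tested, 6 were called higher and 2 lower, with a median log2 fold change of 0.47 against -0.01 over all genes tested. Of all genes tested, 22.8% were called higher and 23.3% lower, shares to be set beside the counts of this and the following lists. Trichohyalin (Tchh), the main matrix protein of the sheath, was at 13.0 ± 1.59 CPM in control and 17.9 ± 0.433 in DPCP skin (SD, n = 3 each), a rise of 0.47 (edgeR adjusted p = 0.0130). Its relative Tchhl1 rose from 9 to 155 counts in all (log2 fold change 3.92) and the transglutaminase Tgm3, which cross-links trichohyalin, rose by 1.72. The peptidylarginine deiminase Padi1 had 1 count over the control and 50 over the DPCP libraries (edgeR adjusted p = 0.000907). The regulators Gata3 and Dlx3 fell by 1.05 and 0.55. Foxn1, Cux1 and Msx2 were not called. The sheath keratin Krt26 and Krt74, which is annotated as a transcribed pseudogene in mouse, had too few counts to test. Several of these genes, Tgm1, Tgm3 and Padi1 among them, are also known from epidermis. Gata3, Cux1, Tgm1 and Padi1, like Cd34, Lrig1, Lef1 and Shh below, share exon bases with another gene, so their levels are uncertain.

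Hair shaft keratins were low or undetected in both groups. Of 15 listed, 14 were analysed and 2 had enough counts to be tested. Krt36 fell from 3.66 ± 0.553 to 0.749 ± 0.568 CPM (log2 fold change -2.27, edgeR adjusted p = 0.00376). Without DPCP replicate 1 its log2 fold change was -3.04. Krt84 was at 2.22 ± 1.03 and 3.60 ± 0.627 CPM (edgeR adjusted p = 0.130). Of the 12 others, 7 had fewer counts over the DPCP than over the control libraries, 3 had more and 2 had 0 in both. Krt33a, for example, had 11 counts over the control and 0 over the DPCP libraries, and Krt86 had 1 and 10. Without the count filter 2 hair shaft keratins were called, Krt36 and Krt39, which had 30 counts over the control and 4 over the DPCP libraries. Without control replicate 3, Krt84 was called higher beside Krt36. Of 6 regulators and partners of the shaft, 5 were tested and 1 was called: Prr9, which rose by 1.33 (edgeR adjusted p = 0.0194) but was not called without DPCP replicate 3 (adjusted p = 0.0505). Lef1, a partner of Wnt signalling in shaft precursor cells, was at 1.03 and 0.728 CPM and was not called, and Shh, which drives follicle growth, had 4 and 2 counts.

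Genes of the upper follicle, where Krt79 is made, moved both ways. Of 9 tested, 4 were called higher and 3 lower, with a median log2 fold change of -0.11. Krt17, also a keratin of stressed epidermis, rose by 1.85 and Cst6, a cysteine protease inhibitor, by 0.68. Whether the changes in this list lay in the follicle or elsewhere in whole skin was not tested. Sostdc1, an inhibitor of BMP and Wnt signals, fell by 0.54, Defb6, a defensin, by 0.54 and Lrig1, a stem cell marker of the junctional zone, by 0.41. The call of Sostdc1 was lost when control replicate 1, 2 or 3 or DPCP replicate 3 was left out (edgeR adjusted p = 0.0977, 0.1, 0.0633 and 0.0524).

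Of 10 tested genes of the bulge and secondary germ, where follicle stem cells rest, 2 were called higher and 4 lower. The median was -0.24, and 22.8% and 23.3% of all genes tested were called higher and lower. In whole skin these changes cannot be placed in the bulge. The stem cell markers Krt15, Krt24 and Cd34 fell by 1.77, 0.94 and 0.70. Cdh3 (P-cadherin) and Postn rose by 1.05 and 0.65. Lgr5 and Sox9 were not called.

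Of the 45 other keratin genes, 26 were tested, 9 were called higher and 13 lower, with a median of -0.43. Some of them also stand in the lists above, and Krt74, annotated as a transcribed pseudogene, is counted among them. The keratins of stressed epidermis rose furthest among the genes named here, Krt6b by 7.95, Krt16 by 5.74 and Krt6a by 5.70 on the log2 scale. Krt78 and Krt23 fell by 2.16 and 1.95. Krt6a shares 600 exon bases with other genes and Krt6b shares 129, so their levels are uncertain. Krt6a and Krt6b are also alike in sequence, and reads aligning to both would not be counted. How many reads that took was not measured.

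Markers of 11 other cell types or states of skin were summed beside Krt28 and Krt32. The 4 suprabasal keratinocyte markers summed to 8609 to 12900 CPM in control and 3168 to 4102 CPM in DPCP libraries, with Krt1, Krt10 and Lor called lower and Ivl not called. The 3 markers of stressed keratinocytes summed to 183 to 273 CPM in control and 13563 to 17915 CPM in DPCP skin, and all 3 were called higher. Sebocyte markers, whose cells adjoin the Krt79 duct, summed to 1470 to 1983 CPM in control and 689 to 1019 CPM in DPCP libraries, with 3 of 5 called lower and none higher. Melanocyte markers summed to 8.47 to 18.5 and 22.5 to 24.5 CPM, with 2 of 5 called higher. The 3 neutrophil markers summed to 10.4 to 14.1 CPM in control and 406 to 1084 CPM in DPCP libraries, all called higher. Skeletal muscle markers summed to 6122 to 8569 CPM in control and 1564 to 3499 CPM in DPCP libraries, with all 3 called lower, as Krt28 and Krt32 were. Basal keratinocyte markers summed to 10508 to 12903 and 23994 to 27692 CPM, with 2 of 4 called higher and 1 lower. Both endothelial markers were called higher, with sums of 100.3 to 124 and 221 to 275 CPM. Adipocyte markers summed to 388 to 472 and 267 to 360 CPM, with 1 of 3 called lower. Fibroblast sums (1152 to 2025 and 1438 to 1609 CPM, 1 of 3 called higher) and leukocyte sums (341 to 538 and 449 to 703 CPM, 1 of 3 called lower) overlapped between groups. Mitochondrial genes held 3.96% to 4.07% of each control library and 3.41% to 3.49% of each DPCP library. No marker in these 11 lists was at 0 in a whole group. Some of the markers, Krt5, Krt10, Ckm and Csf1r among them, share exon bases with another gene, so their levels are uncertain. The part of these differences in the values of Krt28 and Krt32 was not tested.

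The genes whose log2 CPM was most like that of the leading keratin of each layer were named by Pearson's r over the 6 libraries, among 15487 tested genes of at least 1 CPM on average. The 6 points fall into the 2 groups, which do not overlap for Krt28 and Krt32, and r reached 0.95 for 1502 and 1426 genes. For Krt28 the nearest were Pptc7 (0.9994), Ankrd40 (0.9988) and Retreg1 (0.9985), whose own log2 fold changes were -0.59, -0.61 and -1.15. For Krt32 they included Pla2g16 (0.999) and Ttc3 (0.9987), which fell by 1.02 and 0.84. For Krt75, 23 genes reached 0.95, led by Wdr35 (0.9937), Nup210 (0.9871) and Dnah1 (0.9845). For Krt79, 11 did, led by Gbp10 (0.9838), Lmo1 (0.9829) and Trim13 (0.978). None of the 6 genes nearest to Krt75 and Krt79 was called.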

How the data were processed

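Polyadenylated RNA of 6 whole-skin samples was read in 150-base pairs. Per the file headers, the deposited values are raw counts per gene, made by the authors with featureCounts 1.6.2 on Ensembl GRCm38 release 102, with no option set for strand, pairs or multiple alignments. Each mate was thus counted singly on either strand, and ambiguous reads were dropped. The submitters' processing notes list HISAT2 2.2.1 and mm10, along with Trimmomatic 0.36, DESeq2 1.34.0 and StringTie 2.2.1.

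All genes were fitted with edgeR 4.0.16 in R 4.3.3 (quasi-likelihood F-test, TMM factors 0.942 to 1.04, filterByExpr defaults), with Benjamini-Hochberg adjustment over all genes tested. CPM uses TMM-scaled totals, and RPKM divides it by the deposited length. The SE is the unshrunken log2 fold change over the square root of F. A median shift of -0.01 was left as it was. Floors cover counting error only and take counts as independent.

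Symbols of 55141 genes came from GENCODE M21, and promoters from RefSeq. Members and lists were chosen with earlier results of these data known. Named genes were the members, up to 3 called genes per list and direction with the smallest p, and the 3 nearest by Pearson's r; Tchh, Krt84, Lef1, Shh and other genes given to complete a list, and the pairs of genes compared as ratios, were added after values were seen. Some genes named by this rule are not reported here. Fits were tested on simulated counts. Alternatives were RLE factors, library totals, DESeq2 1.42.0, other filters, a replicate block, each library left out, and genes sharing no exon base.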

Additional observations from a re-analysis of the deposited data

How the results depend on the processing

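Krt28 and Krt32 were called lower under all 12 alternatives fitted to each, at -3.37 to -2.86 and -3.30 to -2.85 on the log2 scale, with adjusted p of at most 0.000864 and 0.000791. Krt75 ranged from 0.12 to 0.70 (adjusted p 0.0304 to 0.716) and was called only without DPCP replicate 1. Krt79 ranged from -0.0193 to 0.17 over the libraries left out, negative only without DPCP replicate 1, and was never called. Leaving out a library also turned Gbp10, which ranged from -0.0294 (without DPCP replicate 1) to 0.91, and Trim13 was -0.0295 with library totals alone. None of these 3 passed the test. Called hair shaft keratins numbered 2 without the filter and 1 to 2 with a library left out (2 without control replicate 3), and called shaft regulators 0 to 2 (2 without control replicate 2, 0 without DPCP replicate 3). Leaving out DPCP replicate 1 moved Krt36 from -2.27 to -3.04 and the log2 ratio of Krt32 to Krt36 from -0.62 to -0.24. Among the other 35 genes named by rule, 411 of 418 values kept direction and side of the threshold.

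When only genes with no shared exon base were kept, an alternative added after seeing the data, 5599 of 12271 genes were called, and 1 of the 2 tested keratins, because Krt32 and Krt75 are left out by construction. The replicate numbers carry no stated pairing, and deviations of same-numbered samples correlated at 0.0455, 0.0266 and 0.112. With a replicate block 8501 genes were called and 2 of the keratins, so the block changed no call among the 9, and Krt75 had adjusted p = 0.0734. Krt25, Krt27, Krt71, Krt72 and Krt73 had at most 12 counts in a library, and no setting that tested one of them called it. The cause of the changes across settings was not tested.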
